A study of Homo sapiens with 4 samples.

Results

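The 10 long non-coding RNAs described here are MALAT1, NEAT1, GAS5, SNHG1, SNHG5, SNHG8, SNHG12, ZFAS1, H19 and MIR205HG. They are the entries of the deposited expression table whose Ensembl identifier carries one of these gene symbols, and all 10 were found among the 50653 genes of the table, of which 15288 are long non-coding RNA genes in GENCODE 29. The table was made in a study of quinolinate phosphoribosyltransferase (QPRT), an enzyme of NAD+ synthesis from tryptophan, in breast cancer cell migration and invasion. The cells were BT-20 and MDA-MB-468 (MB-468 in the labels), a pair of established human triple-negative breast cancer lines. Each line stably carried a lentiviral pLKO.1-puro vector that expressed a short hairpin RNA (shRNA), which directs the RNA interference machinery against a matching mRNA, and the hairpin was either a control or one against QPRT. All cells, controls included, had therefore been transduced and selected with puromycin. Each of the 4 combinations was sequenced as 1 library, so no group had a replicate, and a difference between libraries cannot be told apart from a difference between cultures of the same kind. The loss of QPRT and other effects of the hairpin also cannot be told apart.

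Levels are given as FPKM, the fragments on a gene per kilobase of transcript, scaled to the depth of the library. The fragments behind the FPKM values of the 10 genes were recovered from the table as whole numbers, and the libraries had been scaled to between 10321996 and 10945948 fragments. Where a pair of values is given for a line, the first is the library with control shRNA and the second that with QPRT shRNA. Differences are given as FPKM ratios or as differences of log2(FPKM + 1). The interval beside a ratio is the exact 95% Clopper-Pearson interval from the fragments, which covers counting error only and not the spread between cultures. QPRT, the targeted gene, had 249 FPKM in the BT-20 control and 40.5 FPKM after knockdown, and MDA-MB-468 had 117 and 18.3 FPKM. All 8 markers of breast epithelium examined reached 1 FPKM, with a summed level of 7074 to 10252 FPKM. The 22 markers of gut, gastric and plasma cells summed to 100 FPKM in the BT-20 control and 225 FPKM in the MDA-MB-468 control, against 38.4 and 38.5 FPKM after knockdown. Of these markers, 19 were lower with QPRT shRNA in both lines, and 15 reached 1 FPKM in some library. The 10 stroma and blood markers summed to 17.6 to 38 FPKM, of which 4 reached 1 FPKM. COL1A1, a collagen gene, was the highest of them in every library, at 14.7 to 32.0 FPKM. PTPRC, the pan-leukocyte marker, stayed at or below 0.340 FPKM.

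Long non-coding RNAs are transcripts that are not translated into a known protein, and the most abundant of them fall into a few functional kinds. GAS5, SNHG1, SNHG5, SNHG8, SNHG12 and ZFAS1 are host genes of small nucleolar RNAs (snoRNAs), which are cut from the introns of the host and guide chemical modification of ribosomal RNA, while the spliced host transcript is exported and is typically a target of nonsense-mediated decay during translation. MALAT1 and NEAT1 stay in the nucleus, where MALAT1 is found in nuclear speckles, which store splicing factors, and NEAT1 forms the core of paraspeckles. H19 is transcribed from the maternal allele of an imprinted locus and contains the precursor of miR-675, and MIR205HG is the host transcript of miR-205, a microRNA of basal epithelial cells.

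The genes were abundant in BT-20, where all 10 were among the first 99 genes annotated as long non-coding. In MDA-MB-468 9 of them were among the first 37. ZFAS1 ranked first in both BT-20 libraries and GAS5 ranked first in both MDA-MB-468 libraries among 4590 to 4958 such genes above 0 FPKM. H19, at ranks 75 and 99 in BT-20, came only at 489 and 559 in MDA-MB-468, where it was not an abundant RNA. Together the 10 genes took 9130 fragments, or 0.0860% of the library (interval 0.0842% to 0.0877%), in BT-20 with control shRNA. Their share was 0.105% (interval 0.103% to 0.107%) in BT-20 with QPRT shRNA. In MDA-MB-468 it was 0.205% (interval 0.202% to 0.207%) with control shRNA and 0.221% (interval 0.218% to 0.224%) with QPRT shRNA, so that both MDA-MB-468 libraries gave more fragments to these genes than both BT-20 libraries. The 6 snoRNA hosts supplied between 51.4% and 64.1% of these fragments. The fragments of MALAT1, NEAT1, SNHG5, SNHG12 and H19, and with them these shares, rest on a choice of length described with the processing.

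**Figure D1:**
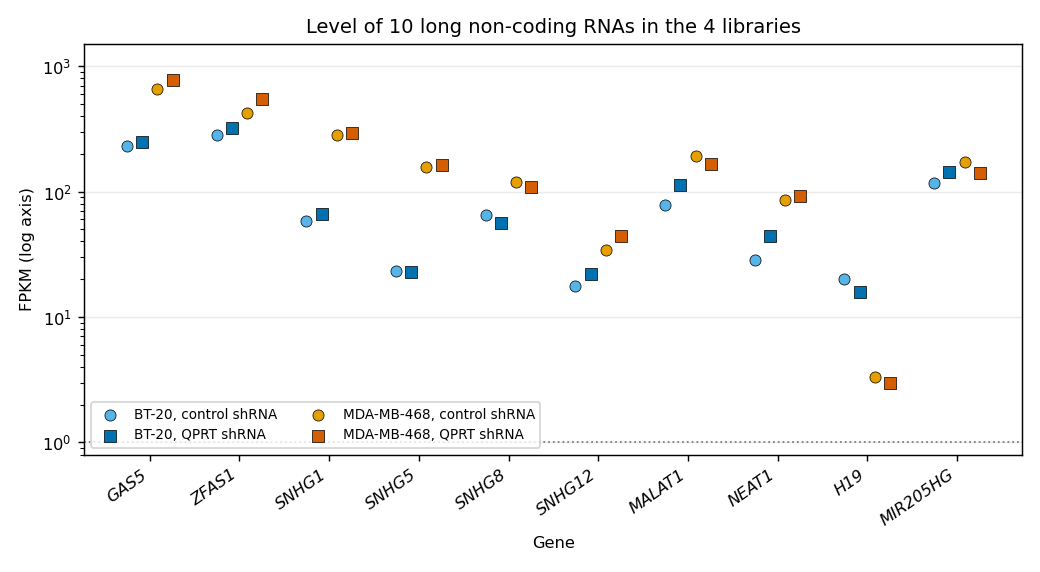
FPKM of each of the 10 long non-coding RNAs (x axis) in the 4 libraries on a logarithmic y axis, with circles for control shRNA, squares for QPRT shRNA, blue for BT-20 and orange for MDA-MB-468; each point is 1 library and the dotted line marks 1 FPKM. The MDA-MB-468 points lie above the BT-20 points for the 6 snoRNA hosts, MALAT1 and NEAT1, and below them for H19, which falls to 2.99 FPKM.

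In BT-20 the order of levels per kilobase ran from ZFAS1 through GAS5, MIR205HG, MALAT1, SNHG1, SNHG8, NEAT1, SNHG5 and SNHG12 to H19. Neighbours in this order whose 2 BT-20 values overlapped were SNHG1 with SNHG8 and SNHG12 with H19. In MDA-MB-468 the order was GAS5, ZFAS1, SNHG1, MALAT1, SNHG5, MIR205HG, SNHG8, NEAT1, SNHG12 and H19, and only SNHG5 and MIR205HG overlapped among neighbours. The deposited values divide each gene by an average over its annotated transcripts, which is short for the nuclear RNAs. By the lengths recovered here, MALAT1 was divided by 1006 bases, whereas its longest annotated transcript has 8708. NEAT1 was divided by 5219 bases, whereas its longest has 22743. When the fragments were divided instead by the length of all annotated exon bases, ZFAS1 and GAS5 came first and second in all 4 libraries, and MALAT1 moved from place 4 to place 7 in BT-20 with control shRNA. The place of a gene in the order therefore depends on the length used, whereas the ratio of a gene between libraries does not. By the fragments recovered with these lengths NEAT1, with 1591 to 5003 a library, exceeded MALAT1, with 831 to 2125, in every library. Multiples of these lengths would also give whole fragments. This comparison and the order by exon bases therefore rest on the lengths chosen.

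Between the lines, the comparison asks which of these RNAs differ between a pair of triple-negative lines irrespective of the shRNA. Of the 10 genes, 6 differed at least 2-fold between MDA-MB-468 and BT-20 with control shRNA, when 31.6% of the 14321 genes tested did so. With QPRT shRNA 5 of the 10 differed at least 2-fold, against 31.4% of all genes tested. GAS5, SNHG1, SNHG5 and NEAT1 were at least 2-fold higher in MDA-MB-468 in both comparisons, MALAT1 was so only with control shRNA, and H19 was at least 2-fold lower in both. At least 2-fold higher levels in MDA-MB-468 were found for 18.3% of all genes tested with control shRNA and for 17.4% with QPRT shRNA. The 10 genes had a median difference of 1.11 in the controls and 0.95 after knockdown on the log2(FPKM + 1) scale, whereas the median of the 1440 long non-coding genes tested was 0.01 and -0.01 and that of all genes tested was 0.12 and 0.07. The 10 genes were chosen with earlier results of these data known, and log2(FPKM + 1) understates differences of low genes. Their contrasts with the background, here and in the fit below, are therefore a description.

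**Figure D2:**
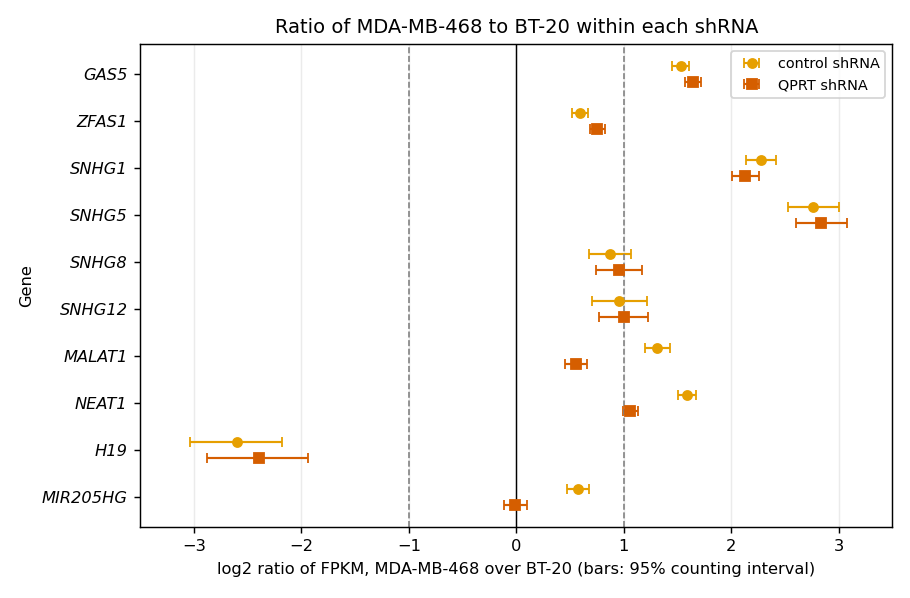
Log2 ratio of FPKM, MDA-MB-468 over BT-20 (x axis), for each gene (y axis), with circles for the libraries with control shRNA and squares for those with QPRT shRNA; bars are 95% counting intervals and dashed lines mark a 2-fold ratio. SNHG5 and SNHG1 lie farthest to the right and H19 farthest to the left in both comparisons, and MALAT1 and MIR205HG lie closer to 0 with QPRT shRNA than with control shRNA.

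The snoRNA hosts were all higher in MDA-MB-468, by 1.51-fold to 7.13-fold. SNHG5, which carries SNORD50B in the annotation used here, differed most. In BT-20 it had 23.1 FPKM with control shRNA and 23.0 FPKM with QPRT shRNA, and its levels in MDA-MB-468 were 156 and 164 FPKM in the same order. Both MDA-MB-468 libraries were thus far above both BT-20 libraries, and the values within a line lay close together. The ratio was 6.78 (interval 5.75 to 8.04) with control shRNA and 7.13 (interval 6.06 to 8.43) with QPRT shRNA. It rested on 164 and 168 fragments in BT-20 and on 1146 and 1133 in MDA-MB-468. SNHG5 lies on chromosome 6 from 85660950 to 85678748 on the minus strand of GRCh38.

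SNHG1, which holds 7 snoRNA genes in the annotation including SNORD22 and SNORD25 to SNORD28, had 58.7 and 66.4 FPKM in BT-20 and 284 and 291 FPKM in MDA-MB-468. Again both libraries of MDA-MB-468 stood above both of BT-20. The ratio was 4.84 (interval 4.41 to 5.33) with control shRNA and 4.38 (interval 4.01 to 4.797) with QPRT shRNA. SNHG1 lies on chromosome 11 from 62851988 to 62855914 on the minus strand, beside SLC3A2, an amino acid transporter chain that lies 187 bases away on the other strand and had 523, 439, 494 and 650 FPKM in the order of BT-20 control, BT-20 QPRT, MDA-MB-468 control and MDA-MB-468 QPRT shRNA. SLC3A2 did not differ 2-fold between the lines in either comparison. WDR74, the nearest protein-coding gene on the other side of SNHG1, had 35.5 and 32.2 FPKM in BT-20. In MDA-MB-468 WDR74 had 60.4 and 73.3 FPKM, so that it was higher there like SNHG1, at least 2-fold only with QPRT shRNA.

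GAS5, known for accumulating in growth-arrested cells, had 229 and 247 FPKM in BT-20 and 661 and 772 FPKM in MDA-MB-468. These were the highest levels of any of the 10 genes in MDA-MB-468, and the lines did not overlap. The ratio was 2.89 (interval 2.74 to 3.05) with control shRNA and 3.12 (interval 2.97 to 3.29) with QPRT shRNA. GAS5 lies on chromosome 1 from 173863900 to 173868882 on the minus strand, and its snoRNAs were not analysed here.

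The other 3 hosts were higher in MDA-MB-468 by less than 2-fold on the log2(FPKM + 1) scale. SNHG8, the host of SNORA24, had 64.9 and 56.2 FPKM in BT-20 and 119 and 109 FPKM in MDA-MB-468, and the ratios were 1.83 and 1.94. SNHG12, with 5 annotated snoRNA genes of which SNORA16A is listed under 2 identifiers, had 17.7 and 21.9 FPKM in BT-20 and 34.4 and 43.8 FPKM in MDA-MB-468. Its ratios were 1.94 and 1.997, or differences of 0.92 and 0.97 on the log2(FPKM + 1) scale. For both genes the counting interval of the ratio included 2-fold in both comparisons, so that the side of the threshold on which they fall is not settled at this depth. ZFAS1, the host of SNORD12, SNORD12B and SNORD12C, had 283 and 323 FPKM in BT-20 and 426 and 545 FPKM in MDA-MB-468. Its ratio of 1.51 (interval 1.43 to 1.59) with control shRNA and 1.69 (interval 1.61 to 1.77) with QPRT shRNA was the smallest among the hosts, although the lines did not overlap.

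The promoters of these hosts are shown because 4 of the 6 share a feature that the choice of genes did not use. Each line gives 40 bases before and 20 bases from the annotated start of transcription, read 5′ to 3′ on the strand of the gene from the RefSeq annotation of GRCh38.p14. Capitals mark the letters TATAA where they lie 20 to 40 bases before the start, and the longest run of C and T that touches the bases from 5 before to 10 after the start.
SNHG5 (chr6:85678714-85678773, minus strand): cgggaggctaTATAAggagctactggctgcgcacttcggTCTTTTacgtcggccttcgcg
SNHG8 (chr4:118278722-118278781, plus strand): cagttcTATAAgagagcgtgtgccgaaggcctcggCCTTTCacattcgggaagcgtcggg
SNHG12 (chr1:28581854-28581913, minus strand): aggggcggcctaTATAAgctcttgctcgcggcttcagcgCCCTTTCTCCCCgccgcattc
ZFAS1 (chr20:49278602-49278661, plus strand): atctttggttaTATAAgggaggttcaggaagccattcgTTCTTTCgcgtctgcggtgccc
SNHG1 (chr11:62855866-62855925, minus strand): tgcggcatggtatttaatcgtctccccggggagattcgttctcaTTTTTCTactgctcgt
TATAA begins 28 to 34 bases before the start in SNHG5, SNHG8, SNHG12 and ZFAS1, whereas 3.82% of 35116 human promoters hold it in that stretch on the strand of the gene. On the other strand, where the letters read TTATA, 1.61% hold it and ZFAS1 is among them, where both words overlap. SNHG1, GAS5, H19 and MIR205HG hold neither word, and of 2 RefSeq starts of MALAT1 the downstream one has TATAA 30 bases before it. The run of C and T was 12 bases long in SNHG12, a length that 3.76% of promoters reach, and 6 or 7 bases in SNHG5, SNHG8, ZFAS1 and SNHG1, a length that 17.9% to 26.3% reach. The GAS5 start in RefSeq lies upstream of the whole GENCODE 29 gene and its run had 3 bases. SNHG5 and SNHG1, the hosts that differed most between the lines, thus fell on either side of this feature, which is a description of letters and not of binding.

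The other non-coding snoRNA hosts, 17 of 21 of which were tested, had a median difference of 0.43 with control shRNA and 0.67 with QPRT shRNA. With control shRNA 1 of them was at least 2-fold higher in MDA-MB-468 and 1 lower. These were EPB41L4A-AS1, at 10.99 and 8.87 FPKM in BT-20 and 37.96 and 46.9 FPKM in MDA-MB-468, and SNHG11, at 31.9 and 28.2 FPKM in BT-20 and 8.68 and 14.4 FPKM in MDA-MB-468. With QPRT shRNA 7 of 17 were at least 2-fold higher and none lower, where 17.4% of all genes tested were so much higher. The 35 protein-coding snoRNA hosts, among them ribosomal protein genes, had medians of 0.02 and 0.14, of which the first turned to -0.13 with upper quartile scaling or without the GC content and length trend. At least 2-fold, 4 of the 35 were higher and 2 lower in the controls, and 6 were higher and none lower after knockdown. The shares of all genes tested that differed so in either direction were 31.6% and 31.4%. Of these, HSPA8, a chaperone, differed by 1.19 and EEF2, the translocation factor of translation, by -1.18 with control shRNA. The medians of the 6 hosts described above, at 1.22 and 1.30, lay above those of both lists. They were selected by name among many hosts, and this order of lists is a description.

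**Figure D3:**
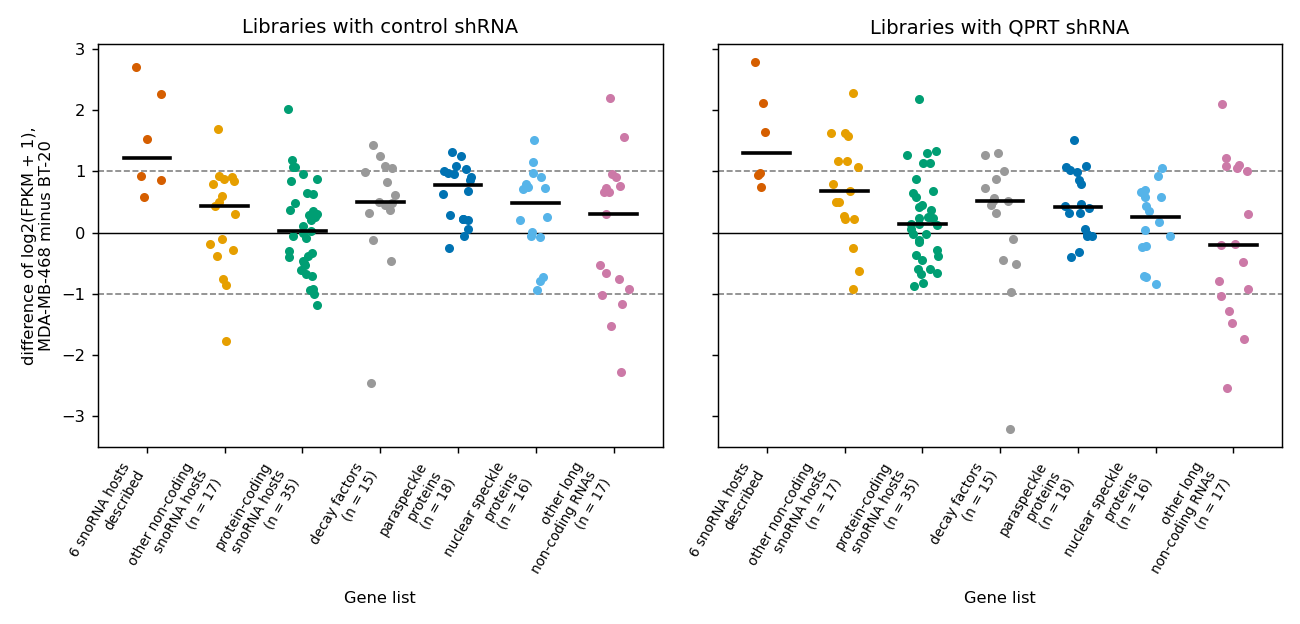
Difference of log2(FPKM + 1), MDA-MB-468 minus BT-20 (y axis), for each gene of 7 lists (x axis) in the libraries with control shRNA (left) and QPRT shRNA (right); points are genes, black bars are list medians and dashed lines mark 2-fold. The 6 snoRNA hosts described all lie above 0 in both panels, with medians of 1.22 and 1.30, and the 35 protein-coding hosts spread around 0.

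Nonsense-mediated decay is a route by which spliced snoRNA host transcripts are removed, and the genes of 15 of its factors were examined beside the hosts. Their median difference between the lines was 0.49 in the controls and 0.51 after knockdown. With control shRNA 4 were at least 2-fold higher in MDA-MB-468 and 1 lower, where 31.6% of all genes tested differed that much in either direction. SMG8, a regulator of the SMG1 kinase, had 8.95 and 10.6 FPKM in BT-20 and 0.815 and 0.254 FPKM in MDA-MB-468. UPF3A, a factor at the exon junction, had 62.2 and 65.3 FPKM in BT-20 and 170 and 159 FPKM in MDA-MB-468. UPF1, the central helicase of the pathway, differed by 0.48 and 0.45. Transcript levels of these factors do not measure decay, which was not measured here.

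Both nuclear RNAs were higher in MDA-MB-468, and for both the ratio was smaller in the libraries with QPRT shRNA. NEAT1 had 28.7 and 44.6 FPKM in BT-20 and 86.2 and 92.9 FPKM in MDA-MB-468. The lines did not overlap, and the BT-20 library with control shRNA was the lowest of the 4. The ratio was 3.01 (interval 2.84 to 3.18) with control shRNA and 2.08 (interval 1.99 to 2.19) with QPRT shRNA, from 1591 to 5003 fragments per library. The call with QPRT shRNA rested on a difference of 1.04 and was lost with upper quartile scaling, at 0.97, and once the trend on GC content and length had been taken out, also at 0.97. Values per gene do not separate the short and the long NEAT1 transcript, of which the long one is needed for paraspeckles.

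MALAT1 had 77.8 and 113 FPKM in BT-20 and 193 and 166 FPKM in MDA-MB-468. The lines did not overlap, but with QPRT shRNA the gap was smaller. The ratio was 2.48 (interval 2.29 to 2.69) with control shRNA and 1.47 (interval 1.36 to 1.58) with QPRT shRNA. The counting intervals of these ratios do not overlap. The difference of 1.30 with control shRNA fell below 2-fold, to 0.93, once the trend on GC content and length had been taken out. The GC content of MALAT1 is low, in that 7.56% of genes tested have a lower one, and the part of GC content in its values was not tested further. MALAT1 and NEAT1 lie on the plus strand of chromosome 11, from 65497688 to 65506516 and from 65422774 to 65445540, next to FRMD8. FRMD8 had 28.5 and 31.0 FPKM in BT-20 and 52.0 and 66.8 FPKM in MDA-MB-468, so that this neighbour was also higher in MDA-MB-468, at least 2-fold only with QPRT shRNA.

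RNAs without a poly(A) tail bear on MALAT1, whose mature 3′ end is a triple helix rather than a poly(A) tail. Of 17 such RNAs on the list examined, 8 were analysed here, and SCARNA13 was the highest at 0.667 to 1.33 FPKM. RMRP and RPPH1, the RNA parts of abundant ribonucleases, were listed at 0 in all 4 libraries. How far the library preparation set the level of MALAT1 was not tested.

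Genes of nuclear body proteins are given beside MALAT1 and NEAT1. Of 18 genes of paraspeckle proteins, 16 were higher in MDA-MB-468 with control shRNA, 5 of them at least 2-fold and none at least 2-fold lower, and the median was 0.77, where 18.3% of all genes tested were at least 2-fold higher. With QPRT shRNA 13 were higher, 4 at least 2-fold, and the median was 0.42. NONO, an essential paraspeckle protein, had 205 and 209 FPKM in BT-20 and 490 and 439 FPKM in MDA-MB-468. SFPQ, its partner, had 244 and 273 FPKM in BT-20 and 520 and 544 FPKM in MDA-MB-468. Without the GC content and length trend the median with control shRNA was 0.46. Among 16 genes of nuclear speckle proteins, 2 were at least 2-fold higher with control shRNA and none lower, with a median of 0.48. They were SRSF11, at 1.51, and SRRM1, at 1.15, both with a role in splicing. With QPRT shRNA 1 of the 16 was at least 2-fold higher and the median was 0.26. These counts of nuclear speckle genes, 2 and 1 of 16, lie below the shares of 18.3% and 17.4% of all genes tested.

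H19 was the gene of the 10 that was lower in MDA-MB-468 with either shRNA. It had 20.02 and 15.7 FPKM in BT-20 and 3.31 and 2.99 FPKM in MDA-MB-468. The BT-20 libraries were both well above the MDA-MB-468 libraries. The MDA-MB-468 level was 0.165 of that in BT-20 (interval 0.121 to 0.221) with control shRNA and 0.190 (interval 0.136 to 0.261) with QPRT shRNA, or 6.05-fold and 5.27-fold lower. These ratios rest on 54 and 46 fragments in MDA-MB-468, the fewest of any of the 10 genes. H19 lies on chromosome 11 from 1995176 to 2001470 on the minus strand. IGF2, its imprinted neighbour that is expressed from the other parental allele, was listed at 0 in 3 libraries and at 0.117 FPKM in BT-20 with QPRT shRNA. Neighbouring MRPL23, a mitochondrial ribosomal protein gene, had 110 and 97.0 FPKM in BT-20 and 77.9 and 88.1 FPKM in MDA-MB-468.

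Other imprinted genes went in both directions between the lines. Of 14 on the list 8 were tested, of which 3 were at least 2-fold higher in MDA-MB-468 and 1 lower with control shRNA. Among all genes tested, 31.6% differed that much in either direction. PEG10, a retrotransposon-derived gene expressed from the paternal allele, had 0.179 and 0.548 FPKM in BT-20 and 35.7 and 107 FPKM in MDA-MB-468. GRB10, an adaptor of receptor kinases, had 8.39 and 3.66 FPKM in BT-20 and 41.3 and 37.9 FPKM in MDA-MB-468. GNAS, the stimulatory G protein subunit, was at least 2-fold lower like H19, at 1723 and 1371 FPKM in BT-20 and 641 and 663 FPKM in MDA-MB-468.

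MIR205HG differed least between the lines. It had 116 and 142 FPKM in BT-20 and 173 and 141 FPKM in MDA-MB-468. The highest value was MDA-MB-468 with control shRNA, the lowest BT-20 with control shRNA, and the libraries with QPRT shRNA nearly coincided. The ratio was 1.49 (interval 1.38 to 1.60) with control shRNA and 0.992 (interval 0.922 to 1.07) with QPRT shRNA. MIR205HG lies on chromosome 1 from 209428820 to 209432838 on the plus strand, and the FPKM values are of the host transcript, since the microRNA itself was not analysed here. The same holds for miR-675 of H19. The mature microRNAs of both hosts are given from the RefSeq annotation of GRCh38.p14, with the seed, bases 2 to 8, in capitals, to show that the RNAs cut from both hosts differ in the bases that select their targets.
hsa-miR-205-5p (MIR205HG, chr1:209432166-209432187, plus strand): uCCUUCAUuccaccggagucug
hsa-miR-205-3p (MIR205HG, chr1:209432203-209432223, plus strand): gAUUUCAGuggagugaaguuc
hsa-miR-675-5p (H19, chr11:1996800-1996822, minus strand): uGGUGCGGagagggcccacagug
hsa-miR-675-3p (H19, chr11:1996768-1996787, minus strand): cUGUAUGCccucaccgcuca
No seed is shared among these 4 sequences. ZEB1 and ZEB2, also on the basal list as repressors of epithelial genes that are known targets of miR-205, stayed at or below 0.573 FPKM in all 4 libraries.

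Genes on the basal epithelial list went in both directions between the lines. Besides basal genes, which are usually expressed with MIR205HG, this list held EPCAM and CDH1, general epithelial genes, VIM, a mesenchymal gene, and ZEB1 and ZEB2. Of its 14 genes 12 were tested, with 5 at least 2-fold higher in MDA-MB-468 and 3 lower with control shRNA. Of all genes tested, 31.6% differed that much in either direction. The higher genes included EPCAM, at 1.28, and VIM, at 1.83, and the lower ones CDH1, at -2.14. KRT17, a basal keratin, had 2.76 and 2.51 FPKM in BT-20 and 237 and 373 FPKM in MDA-MB-468. LAMB3, a laminin chain of the basement membrane, had 45.8 and 64.1 FPKM in BT-20 and 5.16 and 10.1 FPKM in MDA-MB-468. TP63, the basal transcription factor, was between 0.998 and 3.54 FPKM. The differences of several basal genes between the lines were thus larger than that of MIR205HG.

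In the fit over all 4 libraries, in which the control and the QPRT shRNA library of a line stood in for replicates of the line, 9 of the 10 genes passed an adjusted p of 0.05 between the lines (limma, Benjamini-Hochberg adjustment), when 55.1% of the 14321 genes tested did. Higher in MDA-MB-468 were 8 of these, against 30.7% of all genes tested, and H19 was lower. The difference was largest for SNHG5, at 2.75 (SE 0.21, limma adjusted p = 2.54e-38), and smallest among those called for ZFAS1, at 0.67 (SE 0.19, limma adjusted p = 0.00104). H19 had a difference of -2.18 (SE 0.26, limma adjusted p = 8.23e-16). MIR205HG, at 0.28 (SE 0.20), did not pass, with a limma adjusted p of 0.220. The fit has 1 residual degree of freedom and its prior degrees of freedom were infinite, so that the standard errors come from the trend over all genes and not from the spread of each gene. When single libraries were left out, in a fit without the shRNA term, 5 to 8 of the 10 passed, with 5 when MDA-MB-468 with QPRT shRNA was left out. The genes that lost the call in at least 1 of these fits were MALAT1, NEAT1, SNHG12 and ZFAS1. Without a filter on low values none passed, and 8 of the 10 had an unadjusted p under 0.05.

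Between the shRNAs, the comparison asks whether these RNAs differ when QPRT is knocked down. None of the 10 genes differed at least 2-fold with QPRT shRNA in BT-20, where 1.7% of the genes tested did, and none in MDA-MB-468, where 1.89% did. At 1.5-fold, NEAT1 in BT-20 was the only member to differ, against 8.98% of genes tested in that line, and the background in MDA-MB-468 was 9.17%. In the fit over both lines none of the 10 passed an adjusted p of 0.05 (limma), when 0.628% of genes tested did, and none had an unadjusted p under 0.05. Without the GC content and length trend 1 of the 10, ZFAS1, had an unadjusted p under 0.05, and without a filter also 1, SNHG12, with none passing after adjustment. The limma adjusted p was 1.00 for all 10, and the largest difference was that of NEAT1, at 0.36 (SE 0.21). By limma-voom on the recovered fragments also none of the 10 passed, at either an adjusted or an unadjusted p under 0.05.

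**Figure D4:**
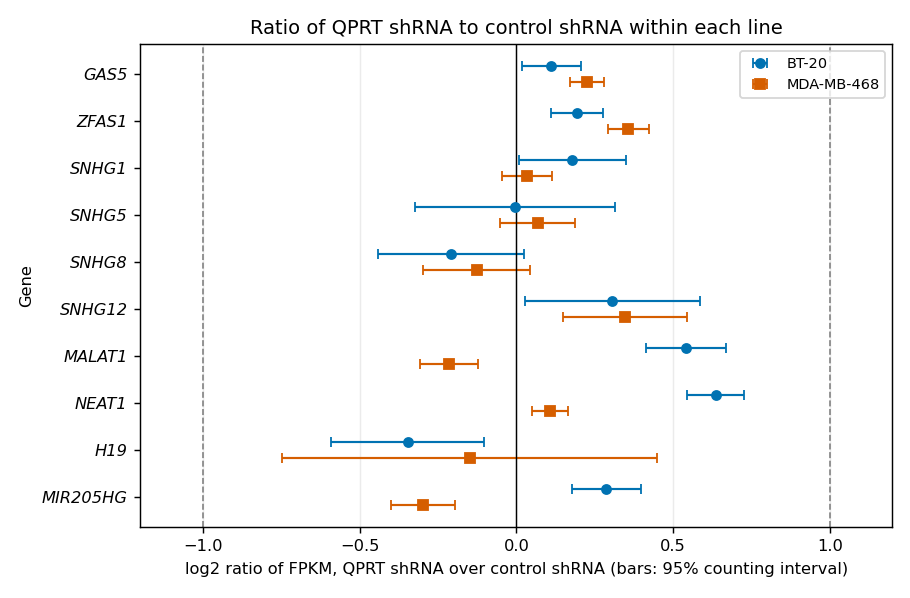
Log2 ratio of FPKM, QPRT shRNA over control shRNA (x axis), for each gene (y axis), with circles for BT-20 and squares for MDA-MB-468; bars are 95% counting intervals and dashed lines mark a 2-fold ratio. All points lie between the dashed lines, with NEAT1 and MALAT1 in BT-20 farthest to the right, and MALAT1 and MIR205HG lie on opposite sides of 0 in the 2 lines.

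The values within each line were as follows. NEAT1 was 1.55-fold as high with QPRT shRNA as with control shRNA in BT-20 (interval 1.46 to 1.66) and 1.08-fold as high in MDA-MB-468 (interval 1.04 to 1.12). MALAT1 had a ratio of 1.46 (interval 1.33 to 1.59) in BT-20 and of 0.861 (interval 0.808 to 0.918) in MDA-MB-468, on opposite sides of 1. MIR205HG did the same, with a ratio of 1.22 (interval 1.13 to 1.32) in BT-20 and of 0.813 (interval 0.758 to 0.872) in MDA-MB-468. For these genes the counting intervals exclude equal levels in the libraries compared, but with 1 library per group the spread between cultures is unknown.

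Among the hosts, ZFAS1 had the same direction in both lines, with ratios of 1.14 (interval 1.08 to 1.21) and 1.28 (interval 1.22 to 1.34). GAS5 had ratios of 1.08 (interval 1.01 to 1.15) and 1.17 (interval 1.12 to 1.21), and SNHG12 of 1.24 (interval 1.02 to 1.5003) and 1.27 (interval 1.11 to 1.46). The intervals of these 3 hosts lay above 1 in both lines, but none passed the fit over both lines. With upper quartile scaling the differences in BT-20 fell from 0.11 to 0.01 for GAS5, from 0.19 to 0.09 for ZFAS1 and from 0.29 to 0.19 for SNHG12. SNHG1 had ratios of 1.13 and 1.02, SNHG5 of 0.997 and 1.05 and SNHG8 of 0.865 and 0.916, and for SNHG5 and SNHG8 the interval included 1 in both lines. H19 had ratios of 0.786 (interval 0.664 to 0.930) and 0.903 (interval 0.596 to 1.36), the latter from 54 and 46 fragments.

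The other snoRNA hosts were on opposite sides in the 2 lines. Of the 17 other non-coding hosts tested, 13 were below 0 in BT-20, with a median of -0.22, and 16 were above 0 in MDA-MB-468, with a median of 0.30, where the medians of all genes tested were 0.05 and 0.01. None differed 2-fold in either line. SNHG19 had 47.9 FPKM in the BT-20 control and 38.1 FPKM after knockdown, and 28.0 and 44.5 FPKM in MDA-MB-468. SNHG30 had 16.8 and 10.9 FPKM in BT-20, and 12.7 and 19.7 FPKM in MDA-MB-468. The 35 protein-coding hosts had a median of -0.05 in BT-20 but of 0.14 in MDA-MB-468, with 22 below 0 in the former and 26 above 0 in the latter. The 6 hosts described here had medians of 0.14 and 0.15, and of these SNHG5 had opposite signs in the lines. With limma none of the 17 and none of the 35 passed over both lines. These medians kept their signs with a pseudocount of 0.1, with upper quartile and TPM scaling and without the GC content and length trend.

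**Figure D5:**
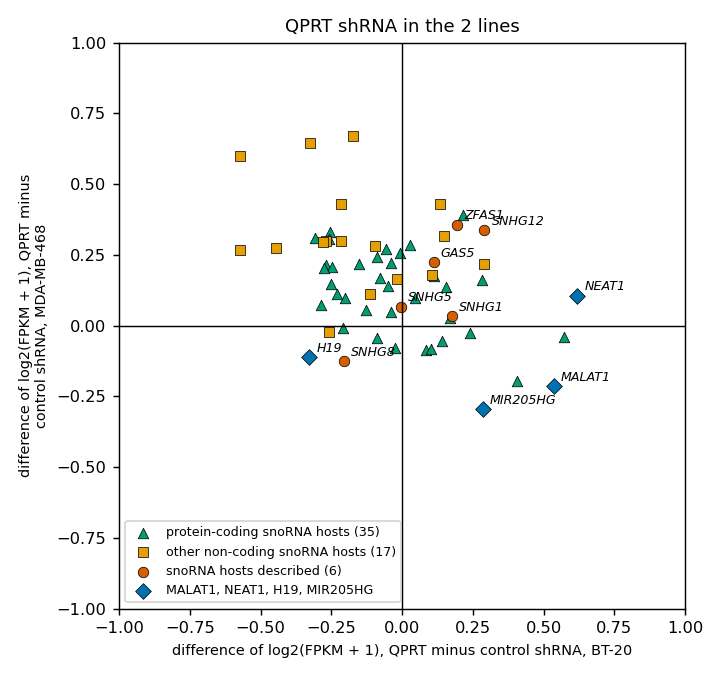
Difference of log2(FPKM + 1), QPRT minus control shRNA, with BT-20 on the x axis and MDA-MB-468 on the y axis, for 58 snoRNA host genes and for MALAT1, NEAT1, H19 and MIR205HG; each point is a gene, and the 2 axes share no library. The other non-coding hosts lie mostly at the upper left, with medians of -0.22 and 0.30, whereas GAS5, ZFAS1, SNHG1 and SNHG12 lie in the upper right and MALAT1 and MIR205HG in the lower right.

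The proteins of the same structures also stayed within 2-fold. No gene of the 18 paraspeckle proteins, the 16 nuclear speckle proteins or the 15 decay factors differed 2-fold with QPRT shRNA in either line. In BT-20, where MALAT1 and NEAT1 had ratios of 1.46 and 1.55, the medians of the 3 lists were 0.05, 0.15 and 0.13, and in MDA-MB-468 they were -0.10, 0.05 and -0.10. The paraspeckle median in BT-20 turned to -0.06 with upper quartile scaling. Taking out the trend on GC content and length lowered the difference of NEAT1 in BT-20 from 0.62 to 0.40 and that of MALAT1 from 0.54 to 0.38, and moved that of MALAT1 in MDA-MB-468 from -0.21 to -0.10. The gut, gastric and plasma cell markers were lower with QPRT shRNA in both lines, with medians of -1.13 and -2.32, while no member was 2-fold lower in either line, and their part in the values of the 10 genes was not tested. With limma 12 of the 14 markers tested were lower over both lines. Of the imprinted and basal genes, PEG10, at 0.39 in BT-20 but 1.56 in MDA-MB-468 (limma adjusted p = 0.0311), and KRT14, a basal keratin at -0.20 and 2.62 (limma adjusted p = 0.00598), passed over both lines. Once the trend on GC content and length had been taken out, limma called 0 genes higher and 2 lower among all genes tested. The calls of PEG10 and KRT14 and most of those of the markers were thus lost. Marker medians nevertheless stayed close to those above, at -1.11 (BT-20) and -2.29 (MDA-MB-468). The prior degrees of freedom of that fit had a median of 8.12, whereas they were infinite in the main fit. Whether the trend or the prior removed the calls was not tested.

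Genes that overlap or adjoin the 10 bear on how fragments are assigned, since the strand setting of the counting is not given in the sources used here. ZFAS1 shares 46.9% of its exon bases with other annotated genes, including ZNFX1 on the opposite strand, SNHG1 shares 15.3% and SNHG8 14.2%, both with the snoRNAs they carry, and the others 9.54% or less. ZNFX1, an antiviral RNA helicase gene, had 44.2 and 58.1 FPKM in BT-20 and 10.3 and 13.3 FPKM in MDA-MB-468, opposite in direction to ZFAS1 between the lines. Fragments in the shared bases cannot be assigned to either gene from the deposited values, so that the ZFAS1 level is uncertain to that extent. None of the 18 nearest protein-coding neighbours of the 10 genes differed at least 2-fold with QPRT shRNA in either line. Between the lines ZNFX1 differed at least 2-fold in both comparisons, and so did PLXNA2, a semaphorin receptor gene. PLXNA2 is the nearest protein-coding gene on the lower-coordinate side of MIR205HG, but lies 1184499 bases away. It had 2.91 and 4.73 FPKM in BT-20 and 16.8 and 19.3 FPKM in MDA-MB-468. Neighbours of SNHG5 and SNHG1, the hosts with the largest difference, did not pass 2-fold in both comparisons. SYNCRIP, next to SNHG5, had 32.2 and 37.2 FPKM in BT-20 and 84.7 and 69.2 FPKM in MDA-MB-468.

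Beside the 10 genes, other long non-coding RNAs on a list of 20, of which 17 were tested, went both ways between the lines. With control shRNA 2 were at least 2-fold higher in MDA-MB-468 and 4 lower, and the median was 0.30. With QPRT shRNA 6 were at least 2-fold higher and 5 lower, and the median was -0.20. Of all genes tested, 18.3% and 17.4% were at least 2-fold higher in the 2 comparisons. CRNDE had 42.9 and 37.7 FPKM in BT-20 and 200.4 and 166 FPKM in MDA-MB-468. UCA1 had 74.1 and 87.3 FPKM in BT-20 and 14.5 and 14.1 FPKM in MDA-MB-468. Among the snoRNA hosts outside the 10, SNHG29 at 261 to 400 FPKM and SNHG32 at 204 to 633 FPKM exceeded SNHG5, SNHG8 and SNHG12 in every library, so the 10 genes are not the full set of abundant non-coding hosts in these cells.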

How the data were processed

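RNA-seq of the 4 libraries was analysed from 1 deposited table. Per the labels, total RNA was extracted with Trizol and prepared with an Illumina TruSeq kit, and the authors trimmed reads of adaptors and low quality and deposited FPKM values. The submitters' processing notes name FastQC, MultiQC, CASAVA, TopHat2 2.0.12 and HTSeq 0.6.1. The genome build, annotation and strand setting are not given in the sources used here. Groups were taken from the sample titles, and 0 columns of other samples were present.

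The members and gene lists were chosen with earlier results of these data known. FPKM multiplied by gene length and by the library's depth gave whole fragments within 0.02 for 87.3% to 87.6% of values above 0, and 97.6% to 97.8% for genes with 1 transcript. For 5 of the 10 genes the length was the GENCODE 29 mean. For the other 5, MALAT1, NEAT1, SNHG5, SNHG12 and H19, several whole-base lengths could make all 4 values whole. The one nearest the GENCODE 29 mean was used. Multiples of that length also give whole values, so the fragments and counting intervals of these 5 genes rest on that choice. Coordinates are from GENCODE 29 (GRCh38), which may not be the authors' annotation. The 27 repeated symbols were resolved to the row with the highest mean.

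Differences were taken on log2(FPKM + 1), which understates the change of low genes, for genes with a mean of at least 1 FPKM, and 2-fold was counted as a difference. Over all 4 libraries limma 3.58.1 (R 4.3.3) was fitted with line and shRNA, eBayes with a trend and Benjamini-Hochberg adjustment over all genes tested. With 1 library per group a difference within a line has no test. The authors' DESeq2 needs counts, so limma-voom on the recovered fragments was an alternative. The other alternatives were a pseudocount of 0.1, upper quartile and TPM scaling, no filter, a mean of at least 5 FPKM, a 1.5-fold threshold, taking out a lowess trend (fraction 0.3) on GC content and length, eBayes without the trend, no shRNA or line term, and leaving out each library. Levels per exon base were added after seeing the data. Fits were tested on simulated data. The genes named are the 10, QPRT, neighbours past 2-fold, and up to 4 genes of each list with a large difference. These were not always the genes with the largest difference of their list. SLC3A2, WDR74, FRMD8, MRPL23, IGF2, SYNCRIP, UPF1, PTPRC, COL1A1, TP63, ZEB1, ZEB2, SNHG29, SCARNA13, RMRP and RPPH1 were named after their values were seen. So were EPCAM and VIM. The reads carry no molecular identifiers, so copies of a molecule made by PCR count more than once. Neighbours past 2-fold are not all reported here. Calculations used scipy 1.17.1, pandas 2.3.3, statsmodels 0.14.6 and numpy 2.4.6 under Python 3.11.15, and plots matplotlib 3.10.9.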

Additional observations from a re-analysis of the deposited data

Results flagged for a closer look

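MALAT1, MIR205HG and SNHG5 had differences of opposite sign with QPRT shRNA in the 2 lines. In MDA-MB-468 minus BT-20, the difference on the log2(FPKM + 1) scale was -0.75 for MALAT1, -0.58 for MIR205HG and 0.071 for SNHG5. With 1 library per line and shRNA these differences between the lines were not tested. For SNHG5 the counting intervals of both lines include no difference, and with TPM scaling both its differences were above 0, at 0.042 and 0.047. MALAT1 and MIR205HG kept opposite signs with a pseudocount of 0.1, with upper quartile and TPM scaling and without the GC content and length trend.

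The medians of several lists were also on opposite sides of 0 in the 2 lines, and these differences were not tested either. In MDA-MB-468 minus BT-20, the difference between the medians was 0.51 for the other non-coding snoRNA hosts, 0.19 for the protein-coding snoRNA hosts, -0.23 for the decay factors and -0.15 for the paraspeckle proteins. It was -0.24 for the other long non-coding RNAs, 0.35 for the imprinted genes, -0.12 for the stroma and blood markers and 0.030 for all long non-coding genes tested. Some of these opposite signs were lost with other settings. The paraspeckle medians and those of the stroma and blood markers were below 0 in both lines with upper quartile scaling and without the GC content and length trend, and the medians of all long non-coding genes tested were above 0 in both lines with TPM scaling.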

How the results depend on the processing

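The count of members past 2-fold with QPRT shRNA stayed at 0 in both lines under 6 alternatives, and at a 1.5-fold threshold 1 member differed in BT-20 and none in MDA-MB-468. Between the lines the count moved from 5 to 8 with QPRT shRNA at 1.5-fold and from 6 to 9 with control shRNA. Without a filter the limma adjustment runs over 50626 genes, many of them at 0. The prior degrees of freedom of that fit were 0.94, whereas they were infinite in the main fit, and which of these moved the calls was not tested. The count of members called between the lines by limma was 0 in that fit and 9 under every scaling, pseudocount and trend alternative. It ranged from 5 to 8 when single libraries were left out and the shRNA term was dropped with them, and none of the 10 was called by shRNA in any fit.

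Over all genes, the limma calls between the lines moved from 7893 to 0 without a filter and to between 4475 and 4848 when single libraries were left out together with the shRNA term, where dropping that term alone gave 7714. Calls by shRNA moved from 90 to 2 without the GC content and length trend, to 45 at a mean of at least 5 FPKM, and to 0 without a filter or without the line term, which was also dropped where a library was left out. Counts at 2-fold with QPRT shRNA were 244 for BT-20 and 271 for MDA-MB-468, and moved to 792 and 756 at a pseudocount of 0.1, to 370 and 417 without a filter, to 103 and 96 at a mean of at least 5 FPKM, and to 1286 and 1313 at 1.5-fold. Between the lines they moved from 4519 to 2984 and from 4491 to 2923 at a mean of at least 5 FPKM, and to 7754 and 7592 at 1.5-fold. Upper quartile scaling moved the median of all genes between the lines with control shRNA from 0.12 to -0.02. The cause of these changes was not tested beyond the thresholds themselves.

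The fit over all 4 libraries pairs the libraries of a line, or of an shRNA, through its other term. With no replicate block, that is without that term, 9 members were called between the lines and 0 by shRNA. Depth limits H19 in MDA-MB-468 most.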
